A study of Mus musculus with 2 samples.

Results

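Transcript levels of 40 genes for glycolysis below glucose phosphorylation, the pentose phosphate pathway, glycogen turnover and the polyol and fructose routes were described in mutant mouse beta cells. The members were chosen by symbol from a named list of enzymes, and all 40 were found among the 55487 genes listed for each library. The beta cells, which secrete insulin from the pancreatic islet, carried floxed alleles of Myt1, Myt2 and Myt3 (genotype label MytF/F; Myt2F/F; Myt3F/F; RipCre). The Myt genes encode zinc-finger transcription factors, and Myt2 and Myt3 are listed in the mouse annotation as Myt1l and St18. RipCre is a Cre recombinase driven by the rat insulin promoter, so recombination depends on cells that use that promoter. The mice were 2 months old, males and females were pooled, and islets were dissociated with trypsin and sorted by fluorescence-activated cell sorting before total RNA was taken. The 2 libraries form 1 group, and library 2 is labelled a duplicate with no word on whether it came from other mice. Control cells were not analysed here, so no value compares mutant with control cells, and a difference between the libraries compares their reads and not conditions.

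The counted reads numbered 50121771 in library 1 and 39003197 in library 2. Reads of the targeted genes were present in both, with Myt1 at 77.6 and 65.4, Myt1l at 44.5 and 39.0 and St18 at 72.7 and 56.5 CPM (a gene's count scaled to a common library total). A total per gene does not show whether the floxed exons are missing. The 10 beta-cell markers (such as Ins1, Ins2 and Mafa) were all detected and made up 41.2% and 41.4% of the length-scaled signal, which goes with the label. The libraries differed by more than sampling noise, with a chi-square of 28.6 per degree of freedom over 20681 genes, and were counted as 2 samples. Of 12 markers of acinar cells, the enzyme-secreting cells of the exocrine pancreas, 10 had enough reads to be tested. All 10 were called higher in library 2, against 1.91% of all genes tested. A call needed an adjusted p under 0.05 (exact binomial test) and 2-fold or more. The 12 markers summed to 116 and 565 CPM, while Prss1 was at 0 in both. All 15 genes of an interferon-response list passed the adjusted p as higher in library 2, against 13.4% of all genes tested. Of these 15, 11 were called, and the list summed to 704 and 1100 CPM. Summed markers of other endocrine cells stood at 1414 and 1176 CPM for alpha cells, 1660 and 1247 CPM for delta cells and 979 and 1215 CPM for PP cells, against 180874 and 184961 CPM for beta cells. Ductal markers stood at 885 and 1230 CPM, and immune, endothelial and mesenchymal markers at 9.05 to 52.9 CPM. Such sums can rest on few genes. The median length-scaled level (TPM) was 6.92 and 6.96 over the 7 ductal markers and 6.04 and 9.02 over the 5 delta-cell markers. In bulk RNA, fewer cells of a type and less RNA per cell cannot be told apart.

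Glycolysis splits glucose into pyruvate, and in beta cells its flux couples blood glucose to ATP, closure of potassium channels and insulin release. Glucose-6-phosphate can leave it for the pentose phosphate pathway, which makes NADPH and ribose, or be stored as glycogen. Several steps are carried out by isoenzymes from different genes, such as the M and L pyruvate kinases, which differ in their control by metabolites.

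The RefSeq start windows (build GRCm38.p6) of 3 members are shown because these genes carry the regulatory letters and the library differences described in the paragraphs on transcript levels. Pklr encodes the liver and red-cell pyruvate kinase. Of the 38 members with a start window (Gys2 and Akr1b3 have none here), it was the only one with a carbohydrate response pattern (CACGNG, any 5 bases, then CNCGTG), a known binding layout of the glucose-sensing factor ChREBP, and that pattern was searched with the known element of this gene in mind. Pfkfb3 and Pfkp are members whose levels differed 2-fold or more between the libraries. For each gene 1 window is shown. Each sequence is printed 5′ to 3′ on the strand of the gene and holds the bases before the annotated start that lie in no annotated exon. Capitals mark the carbohydrate response pattern in Pklr, the E-box CACGTG in Pfkfb3 (which holds the hypoxia response core ACGTG on both strands, overlapping) and the 4 GC boxes GGGCGG, read on either strand, in Pfkp.
Pklr, chr3:89136373-89136571, plus strand: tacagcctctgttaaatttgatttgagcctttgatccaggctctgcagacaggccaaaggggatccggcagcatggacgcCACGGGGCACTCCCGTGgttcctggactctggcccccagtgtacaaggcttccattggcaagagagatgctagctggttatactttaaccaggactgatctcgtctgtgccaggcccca
Pfkfb3, chr2:11502102-11502340, minus strand: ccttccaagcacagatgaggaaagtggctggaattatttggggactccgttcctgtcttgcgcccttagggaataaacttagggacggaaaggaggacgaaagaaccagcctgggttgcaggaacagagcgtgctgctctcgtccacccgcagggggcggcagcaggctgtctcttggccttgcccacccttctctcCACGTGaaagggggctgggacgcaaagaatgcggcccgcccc
Pfkp, chr13:6648778-6649021, minus strand: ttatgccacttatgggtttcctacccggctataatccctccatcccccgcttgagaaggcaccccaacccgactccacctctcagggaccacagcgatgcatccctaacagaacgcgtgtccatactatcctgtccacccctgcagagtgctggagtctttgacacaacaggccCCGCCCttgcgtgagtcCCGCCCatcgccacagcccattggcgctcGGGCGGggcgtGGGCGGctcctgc
The Pklr match spans bases 170 to 154 before the start. The printed stretches of Pklr and Pfkfb3 lie within the spans of their genes but in no exon. GENCODE M21 places Pklr at chr3:89136142-89146784 and Pfkfb3 at chr2:11471433-11554077. The printed Pfkp stretch lies just before its gene, at chr13:6579768-6648777. The full windows also hold annotated exon bases, 51 for Pklr, 11 for Pfkfb3 and 6 for Pfkp. The bases just after the Pklr start used here were found in no GENCODE M21 transcript of the gene. Only 13 of all 32851 RefSeq start windows, or 0.0396%, held the carbohydrate response pattern on either strand within 250 bases before the start. The E-box of Pfkfb3 lies from base 53 to base 48 before its start, and CACGTG was held by 6.02% of all windows. In Pfkp the GC boxes lie within the last 76 bases before the start, and GGGCGG was held by 32.7% of all windows. A match describes letters in a window and is not a measured binding site.

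Expression of the enzymes was broad. Of the 40 genes, 38 (95%) reached 1 CPM in both libraries, against 24.4% of all 55487 genes, and all 40 passed the filter of 10 reads summed over the libraries. Levels between genes are given in TPM, which scales reads by gene length and by the library. The median member stood at 24.3 TPM over both libraries, and the 38 detected members had a median of 25.7 TPM where all detected genes had 14.8 TPM. Together the members summed to 1626 TPM in library 1 and 1562 TPM in library 2. The M-type pyruvate kinase gene Pkm stood highest, at 328 and 294 TPM, followed by the aldolase gene Aldoa at 227 and 257 TPM. The members below 1 CPM in at least 1 library were both glycogen genes, the liver glycogen synthase Gys2 and the muscle phosphorylase Pygm. Of the 39 neighbours in the order of mean levels, 18 were separated by more than the spread of the libraries.

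**Figure D1:**
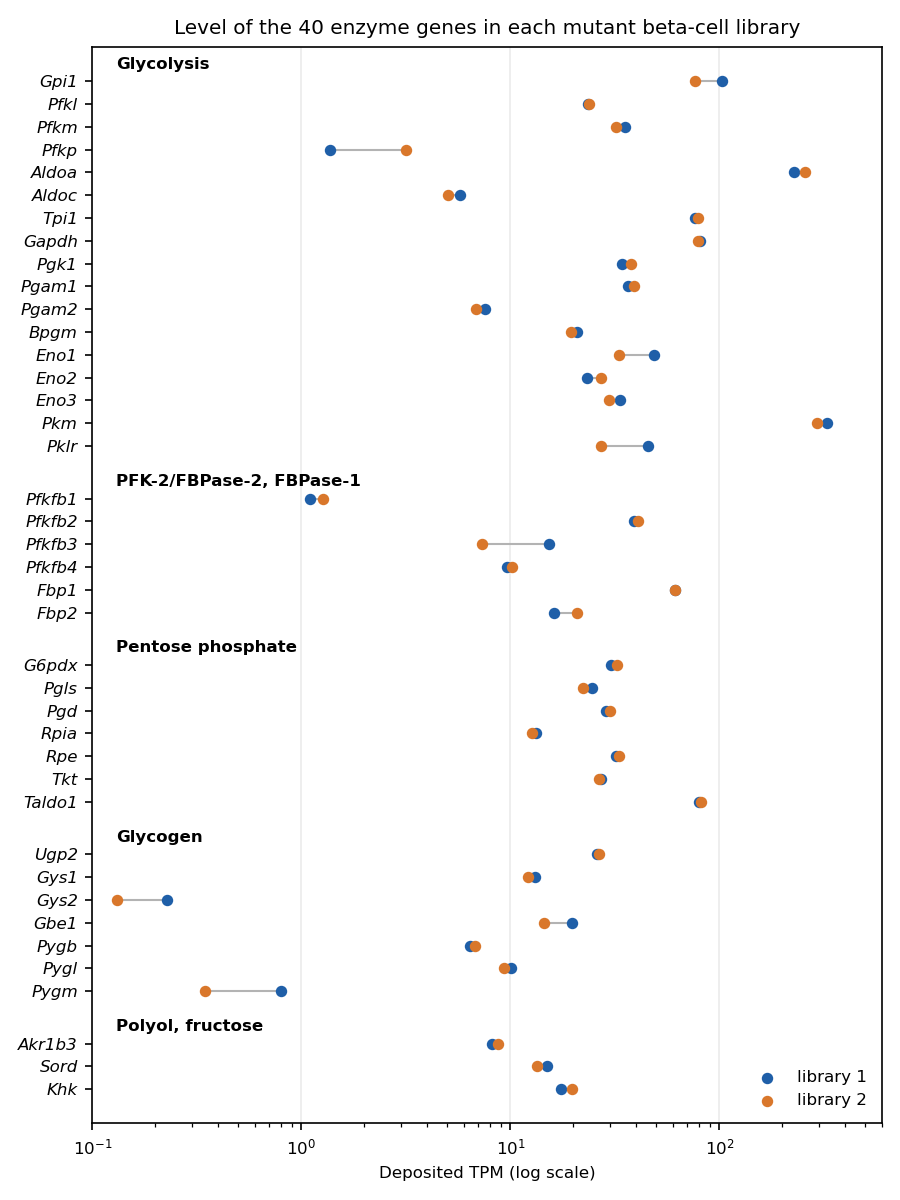
Length-scaled level of each of the 40 enzyme genes on a log axis (TPM), grouped by pathway, with 1 point for each library. Pkm and Aldoa stand at the top and Gys2 and Pygm at the bottom, and for most genes the points of both libraries lie close together.

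In the upper part of glycolysis the muscle and liver phosphofructokinases prevailed, while the platelet type gave little of the signal. Gpi1 makes fructose-6-phosphate and stood at 103 TPM in library 1 and 76.1 TPM in library 2, a mean of 89.7 ± 19.2 TPM (SD, n = 2). Phosphofructokinase-1, the committing step of glycolysis, has 3 genes. Pfkm, the muscle type, stood at 35.5 and 32.0 TPM and gave 58.9% and 54.3% of the summed level. Pfkl, the liver type, stood at 23.4 and 23.8 TPM and gave 38.9% and 40.3%. Pfkp, the platelet type, gave only 2.27% and 5.36%, at 1.37 and 3.16 TPM. The order of the 3 genes was the same in both libraries, with Pfkm over Pfkp 25.9-fold in library 1 and 10.1-fold in library 2. Pfkm over Pfkl was 1.52-fold (95% interval 1.43 to 1.60) and 1.35-fold (1.26 to 1.44), an order that turns when reads are not scaled by length or are scaled by the longest transcript.

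Among the aldolases, which split fructose-1,6-bisphosphate, Aldoa gave 97.5% and 98.1% of the sum of the 2 member genes. Aldoc, the brain type, stood at 5.73 and 5.01 TPM. Aldoa over Aldoc was 39.6-fold in library 1 and 51.4-fold in library 2. Tpi1, which interconverts the 2 triose products, was close in the libraries at 76.2 and 78.6 TPM.

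The lower part ran from single-gene steps at moderate levels to pyruvate kinase, the highest step. Gapdh, the triose phosphate dehydrogenase, stood at 80.4 and 79.4 TPM, or 121 and 120 CPM unscaled. Its TPM rests on a length of 4133 bases in 2 merged exons, and its longest annotated transcript has 3289. A shorter transcript in these cells would give a higher level, which was not tested. Pgk1, the first ATP-making enzyme, stood at 34.1 and 37.9 TPM, and the mutase Pgam1 at 36.6 and 39.1 TPM. The intervals of these neighbours included equality in both libraries, with a ratio of Pgk1 to Pgam1 of 0.931 (95% interval 0.863 to 1.01) and 0.969 (0.893 to 1.05). With lengths reduced to sequence found in no other gene, Pgk1 stood above Pgam1, at a mean log2 ratio of 0.40 in place of -0.07. The muscle mutase Pgam2 was lower, at 7.59 and 6.82 TPM. Bpgm, which makes 2,3-bisphosphoglycerate and is best known from red cells, stood at 20.8 and 19.6 TPM, while the 5 erythroid markers summed to only 1.34 and 2.67 CPM.

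The 3 enolase genes, which make phosphoenolpyruvate, were all well expressed, with Eno1 over Eno2 at 2.101-fold in library 1 and 1.23-fold in library 2. Eno1, the ubiquitous type, stood at 48.6 and 33.3 TPM. Eno3, the muscle type, stood at 33.3 and 29.7 TPM. Eno2, the neuronal and endocrine type, stood at 23.2 and 27.0 TPM, below Eno3 per merged exon length but above it per longest transcript or unscaled. Eno1 gave 46.3% and 37.0% of the sum, and Eno1 over Eno3 was 1.46-fold in library 1 but 1.12-fold (95% interval 1.03 to 1.22) in library 2. These values rest on merged exon lengths of 5379 bases for Eno1 and 1739 for Eno3. Their longest annotated transcripts have 2027 and 1564 bases. Per longest transcript or unscaled, the share of Eno1 and its excess over Eno3 were larger in both libraries. The interval holds counting error and not this choice of length. The 6 skeletal muscle markers summed to 3.55 and 4.28 CPM, with Myh4 at 0 in both libraries. The 6 neuronal markers summed to 347 and 345 CPM. Only 2 of these neuronal markers were detected, and the median of the 6 was 0.530 and 0.379 TPM.

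Pyruvate kinase makes pyruvate and ATP and stood above every other step formed by the members, at 374 TPM in library 1 and 321 TPM in library 2. Pkm gave 87.8% and 91.5% of it. Pklr stood at 45.6 and 27.2 TPM, so that Pkm exceeded it 7.20-fold (95% interval 6.92 to 7.49) and 10.8-fold (10.2 to 11.4). The pyruvate kinase sum was 6.20 times and 5.44 times the phosphofructokinase-1 sum, a mean log2 ratio of 2.54 ± 0.13 (SD, n = 2). Part of the Pklr reads is uncertain, because Hcn3 overlaps 22.0% of its exon bases on the opposite strand and the library kit does not mark strand.

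**Figure D2:**
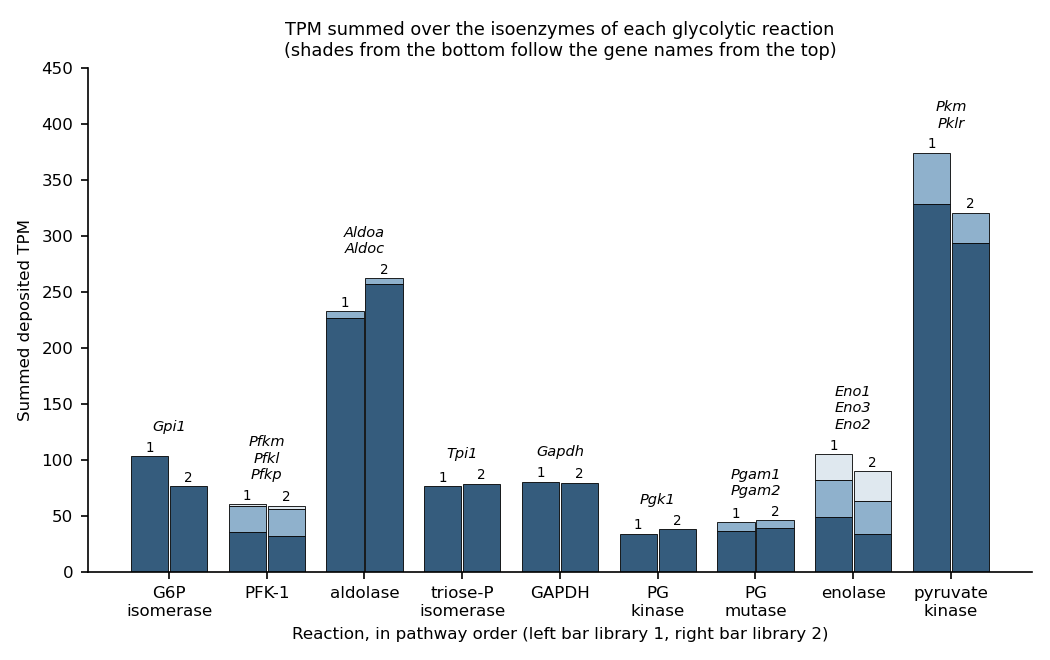
Length-scaled signal (TPM) summed over the member isoenzymes of each glycolytic reaction, with 1 bar for each library and the isoenzymes stacked. Pyruvate kinase and aldolase stand above the other reactions, where Aldoa and Pkm make up most of them, and the enolase bars are shared by 3 genes.

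The enzymes that make and remove fructose-2,6-bisphosphate, the strongest activator of phosphofructokinase-1, were led by Pfkfb2. This gene encodes the heart type and stood at 39.1 and 41.0 TPM, or 60.1% and 68.6% of the family. Pfkfb4, the testis type, stood at 9.62 and 10.2 TPM, and Pfkfb1, the liver type, was lowest at 1.09 and 1.27 TPM. Pfkfb3, the inducible type with high kinase activity, stood at 15.2 TPM in library 1 and 7.28 TPM in library 2. Its place in the family therefore changed: it was 1.58-fold above Pfkfb4 in library 1 (95% interval 1.46 to 1.72) and at 0.713 of it in library 2 (0.643 to 0.790).

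Fructose-1,6-bisphosphatase runs the opposite way to phosphofructokinase-1 and belongs to gluconeogenesis. Fbp1, the liver type, stood at 61.6 and 61.1 TPM, and Fbp2, the muscle type, at 16.1 and 20.9 TPM. Fbp1 over Fbp2 was 3.82-fold and 2.92-fold. The 2 genes together stood at 77.7 and 82.0 TPM, beside 60.3 and 58.9 TPM for the 3 phosphofructokinase-1 genes, an order that unscaled reads reverse (46.7 and 49.5 CPM beside 107 and 113 CPM). Fbp1 exceeded Pfkm 1.73-fold (95% interval 1.63 to 1.85) and 1.91-fold (1.78 to 2.05) per length, while unscaled reads gave the opposite order.

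**Figure D3:**
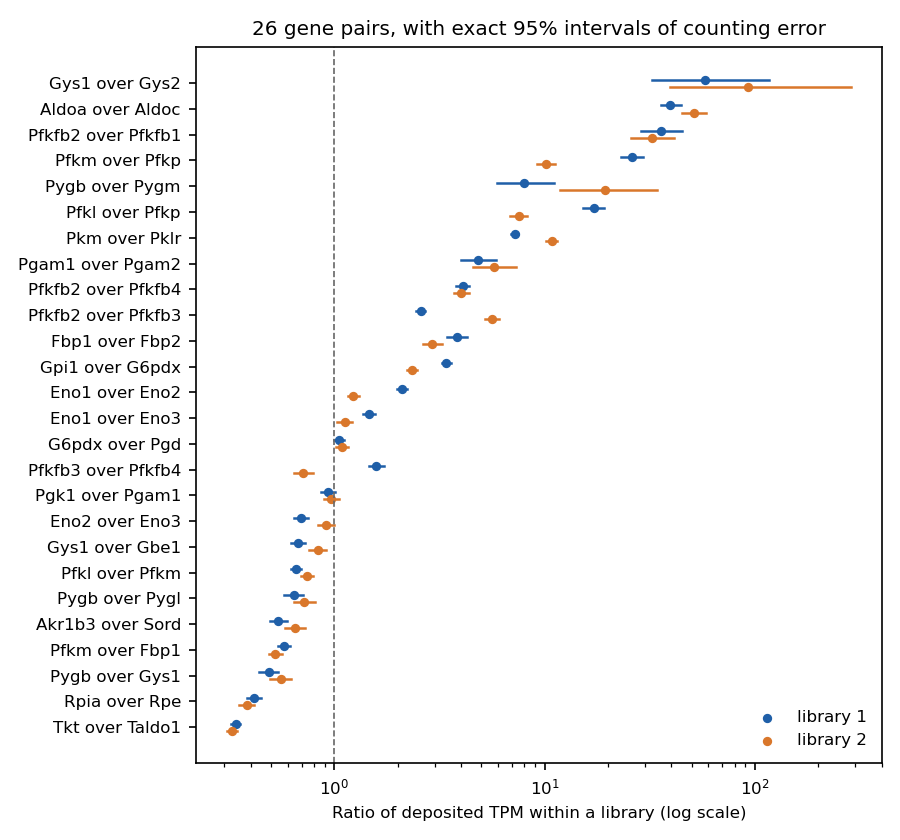
Ratio of length-scaled levels within each library for the 26 gene pairs, on a log axis with a dashed line at equal levels and lines for exact 95% intervals of counting error. For 23 pairs both libraries lie on the same side of equality with intervals that exclude it, and Pfkfb3 over Pfkfb4 lies above it in library 1 and below it in library 2.

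The 7 pentose phosphate genes were all detected, and 0 of them passed the adjusted p between the libraries with no fold minimum (exact binomial test), where 32.4% of all genes tested passed, while 3 had an unadjusted p under 0.05. A count over 7 genes is a description. G6pdx, the NADPH-making entry enzyme, stood at 30.3 and 32.5 TPM. Pgls, the lactonase, stood at 24.6 and 22.3 TPM, and Pgd, the second NADPH-making enzyme, at 28.7 and 30.0 TPM. The 3 enzymes of the oxidative branch were thus within a narrow range, and the ratio of G6pdx to Pgd was 1.05 (95% interval 0.993 to 1.12) and 1.08 (1.02 to 1.16) but below 1 on unscaled reads or per longest transcript. At the branch point Gpi1 exceeded G6pdx 3.41-fold in library 1 and 2.34-fold in library 2. In the non-oxidative branch the transaldolase Taldo1 was highest, at 79.6 and 81.9 TPM. The transketolase Tkt stood at 27.0 and 26.6 TPM, so that Taldo1 exceeded it 2.95-fold and 3.08-fold per length, an order that reads not scaled by length reverse. The epimerase Rpe stood at 31.9 and 33.2 TPM and the isomerase Rpia at 13.3 and 12.8 TPM.

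Glycogen genes stood lower than those of glycolysis, with a list median of 9.69 TPM against 36.0 TPM for the 17 genes of glycolysis. Ugp2, which makes the UDP-glucose used for glycogen and for other sugars, was highest at 26.1 and 26.4 TPM. The branching enzyme Gbe1 stood at 19.7 and 14.6 TPM, and Gys1, the muscle-type synthase, at 13.2 and 12.1 TPM. Gys2 had 11 reads in library 1 and 5 in library 2, and Gys1 made up 98.3% and 98.9% of the synthase signal. For breakdown, the liver phosphorylase Pygl stood at 10.04 and 9.35 TPM and the brain type Pygb at 6.43 and 6.74 TPM. Pygl over Pygb was 1.56-fold and 1.39-fold, and both exceeded Pygm, which had 47 reads and 16 reads. The phosphorylase sum was 16.9 ± 0.598 TPM (SD, n = 2) and the synthase sum 12.8 ± 0.817 TPM (SD, n = 2).

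The polyol pathway turns glucose into sorbitol and then fructose. Aldose reductase, Akr1b3, stood at 8.15 and 8.70 TPM and the sorbitol dehydrogenase Sord at 15.0 and 13.4 TPM, an order that unscaled reads reverse. Ketohexokinase, Khk, which phosphorylates fructose, stood at 17.4 and 19.6 TPM. The 3 genes thus covered the whole route at low to moderate levels, and 0 of them passed the adjusted p between the libraries (exact binomial test), against 32.4% of all genes tested, with 1 at an unadjusted p under 0.05. Of the 50-base words of Sord, 31.3% are shared with the pseudogene Gm6652, so its level is uncertain.

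Between the libraries, 3 of the 40 members (7.50%) were called, against 4.31% of the 20681 genes tested. A gene was called at an adjusted p under 0.05 (exact two-sided binomial test on reads against library totals, Benjamini-Hochberg over all genes tested) with a ratio of 2-fold or more. Pfkp stood at 6.66 and 15.6 CPM, 2.33-fold higher in library 2 (95% interval 2.04 to 2.68, exact binomial test, adjusted p = 9.7e-36), where 1.91% of all genes were called higher in library 2. Pfkfb3 stood at 41.8 and 20.2 CPM, 2.07-fold lower in library 2 (1.91 to 2.25, exact binomial test, adjusted p = 3.2e-72). Pygm stood at 0.938 and 0.410 CPM, 2.24-fold lower in library 2 (1.27 to 4.32, exact binomial test, adjusted p = 0.013) on few reads, and 2.40% of all genes were called lower. These tests hold counting error only. With the difference itself counted as spread, in edgeR's exact test with a common dispersion, 0 of the 40 were called and 3 had an unadjusted p under 0.05, with adjusted p-values of 0.12 for Pfkp, 0.29 for Pfkfb3 and 0.87 for Pygm.

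Without a minimum fold, 14 of the 40 members (35.0%) passed the adjusted p, against 32.4% of all genes tested and 43.8% of those averaging at least 1 CPM. Of these, 6 were higher in library 2 (Pfkp, Aldoa, Pgk1, Eno2, Pfkfb2 and Fbp2), where 13.4% of all genes were higher. The other 8 were lower (Gpi1, Pfkm, Eno1, Pkm, Pklr, Pfkfb3, Gbe1 and Pygm), where 19.0% of all genes were lower. Pklr stood at 53.6 and 32.3 CPM, 1.66-fold lower in library 2 (95% interval 1.55 to 1.77), which lies under the 2-fold minimum. Eno1 stood at 94.97 and 65.7 CPM, 1.45-fold lower, and Gpi1 at 242 and 180 CPM, 1.34-fold lower. The median log2 ratio was 0.00 for the members and -0.04 for all genes tested. By sign alone, 20 members were higher and 20 lower in library 2, against 9016 higher and 11665 lower of all genes tested. Of the members, 77.5% lay within 1.2-fold, against 57.4% of all genes tested and 71.8% of those averaging at least 1 CPM. The part of the acinar and interferon-response signal in these differences was not tested.

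**Figure D4:**
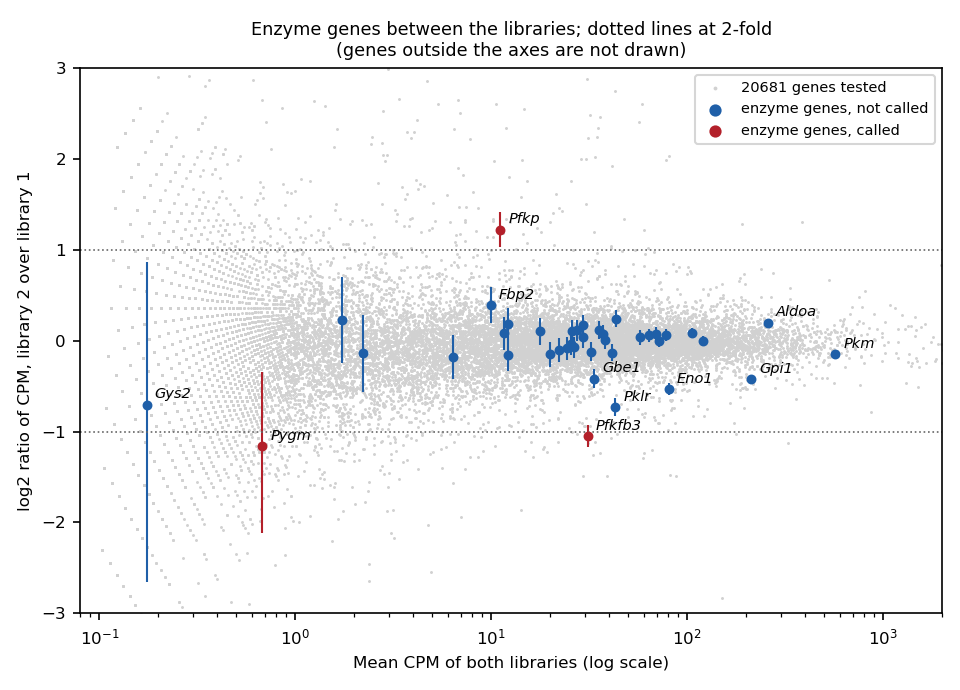
Log2 ratio of CPM, library 2 over library 1, against mean CPM on a log axis, for the 40 enzyme genes (blue or, where called, red, with exact 95% intervals) and all genes tested (grey). Pfkp lies above the upper dotted line at 2-fold, Pfkfb3 and Pygm lie below the lower one, and most other enzyme genes lie near 0.

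Other genes of the same pathways place the members among their neighbours. Of 13 genes for glucose entry and lactate, 7 were detected and 0 were called between the libraries, while 4 passed the adjusted p with no fold minimum. Over all genes tested, 4.31% were called and 32.4% passed with no fold minimum. G6pc2, the islet glucose-6-phosphatase, stood at 4358 and 5075 TPM, and the glucose transporter Slc2a2 at 424 and 299 TPM. Ldha, which makes lactate and is among the genes kept low in beta cells, was the lowest detected at 1.63 and 1.31 TPM, against 328 and 294 TPM for Pkm. Of 25 genes in branches of hexose metabolism, 19 were detected and 1 was called, and 10 of the 22 tested passed with no fold minimum (6 higher, 4 lower). Gfpt1, the entry enzyme of the hexosamine pathway, stood at 264 and 276 TPM, and the ribose phosphate kinase Prps1 at 124 and 123 TPM. Gapdhs, the sperm type of Gapdh, was the lowest detected at 4.57 and 3.51 TPM. The called gene was Gpd1l, a paralog of the glycerol-3-phosphate dehydrogenase Gpd1, which stood at 36.9 and 314 CPM, 8.51-fold higher in library 2 (95% interval 8.10 to 8.94).

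Of 20 genes that control glycogen, 17 were detected and 0 were called, while 9 passed the adjusted p with no fold minimum. The lysosomal glucosidase Gaa led them at 143 and 146 TPM, and the synthase kinases Gsk3a and Gsk3b stood at 50.3 and 48.0 TPM and at 47.4 and 40.5 TPM. Ppp1r3f, a glycogen-targeting phosphatase subunit, was the lowest detected at 1.32 and 1.06 TPM. Of 16 genes for glucose- and oxygen-responsive regulation, 15 were detected and 1 was called, and 12 passed with no fold minimum (4 higher, 8 lower). For both lists the shares over all genes tested were 4.31% called and 32.4% passing with no fold minimum. Among genes averaging at least 1 CPM, 43.8% passed. Txnip, a target of ChREBP, stood at 1565 and 1083 TPM, Vegfa, a hypoxia-responsive growth factor, at 476 and 447 TPM, and Mlxipl, which encodes ChREBP, at 251 and 241 TPM. Epas1, a hypoxia-inducible factor, was the lowest detected at 2.29 and 1.61 TPM. The called gene, Adm, encodes the peptide adrenomedullin and stood at 0.180 and 0.641 CPM, 3.45-fold higher in library 2 (95% interval 1.61 to 8.69), under 1 CPM in both. This call is lost in edgeR's exact test with the common dispersion (adjusted p = 0.40), while that of Gpd1l is not (adjusted p = 9.3e-12).

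Start windows of the members were richer in CpG than those of genes at large. RefSeq gave 56 windows for 38 of the 40 members, and the median ratio of observed to expected CpG was 0.618, against 0.373 over all 32851 windows. The ratio exceeded 0.6 in 51.8% of the member windows and in 34.0% of all windows. The GC box GGGCGG was held by 53.6% of member windows and 32.7% of all, and the core ACGTG by 30.4% and 16.6%. The letters TATAAA were in 5.36% and 12.4%, and CCAAT in 35.7% and 33.8%. GGGCGG and ACGTG both hold CG, and the member windows also had a higher median GC content, at 57.8% against 52.4%. Whether their shares go beyond this base content was not tested. The windows at large were not limited to genes detected here. Windows of 1 gene can overlap, and these shares are descriptions.

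Counting of several members is uncertain because their sequence recurs elsewhere. Of the 50-base words in the annotated transcripts of each gene, 53.9% for Pgk1, 36.2% for Pgam1, 26.0% for Eno1, 25.8% for Pkm and 25.1% for Gapdh also occur in another gene. For Gapdh these other genes number 223, of which 213 are pseudogenes. Besides Pklr, other members are overlapped on the opposite strand, at 17.9% of exon bases for Rpe, 13.6% for G6pdx and 11.5% for Gpi1. On the same strand the overlap was 20.6% for Pgls, 17.4% for Pfkfb2, 15.3% for Pkm and 10.2% for Pfkm. The handling of reads that match several genes is not given in the sources used here.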

How the data were processed

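Total RNA of sorted mutant beta cells was sequenced in 2 libraries of 1 group. Per the file headers, each deposited table gives a raw read count, a TPM value and a CPM value for each gene. Per the submitters' processing notes, the tools were featureCounts 2.0.2, STAR 2.7.8a and cutadapt 2.10, on the build GRCm38.p6. The sources used here give no settings for them. CPM as deposited equals the count over the library total, and the length behind the deposited TPM lay within 1% of the merged exons of GENCODE M21 in 98.35% of 16229 genes of library 1 and in 98.4% of 15318 of library 2. Where a symbol had more than 1 identifier (109 symbols, Aldoa among the members), the one with most reads was used.

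Levels are given by library or as mean ± SD (n = 2). Intervals at 95% are exact Clopper-Pearson intervals, and they cover only the error of counting, since reads with no molecular identifier may stem from 1 molecule. A count of 0 allows up to 3 reads, which is 0.0599 CPM for library 1 and 0.0769 CPM for the other. A pair of genes differed where the intervals of both libraries excluded a ratio of 1 on the same side. Library 2 was compared with library 1 by an exact binomial test on the 20681 genes with 10 or more reads summed, with 0.5 read added for ratios. Its p-values measure only the reads of these libraries, whose spread may be technical. edgeR's quasi-likelihood test needs a second group. Alternatives used edgeR 4.0.16 and DESeq2 1.42.0 under R 4.3.3, and the rest ran in Python 3.11.15 with scipy 1.17.1. Promoter windows are those of RefSeq.

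The members and lists were chosen with earlier results of these data known. All 40 members are accounted for, and from each pathway list the text names the 3 highest, the lowest detected and any called gene, except for items that are not reported here.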

Additional observations from a re-analysis of the deposited data

How the results depend on the processing

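No paired analysis was possible because the labels give 1 group. The median member level of 24.3 TPM was 25.8 with lengths of unshared sequence and 24.0 to 25.1 with either library left out. The unshared lengths were an alternative chosen after seeing the data. With them, single members can shift more than the median, as only 46.1% of the Pgk1 words, 63.8% for Pgam1 and 68.7% for Sord are unshared. The log2 ratio of pyruvate kinase to phosphofructokinase-1, 2.54, was 2.88 with unshared lengths and 2.44 to 2.63 with either library left out. Of all genes, 892 were called between libraries (395 higher, 497 lower). The number was 356 among those averaging at least 1 CPM, 213 with edgeR's exact test, 1664 at 1.5-fold and 6699 with no fold minimum. With TMM factors the split was 424 higher and 441 lower. Of the members, 3 were called, 2 with the 1 CPM filter, 4 at 1.5-fold (Pklr added), 14 with no fold minimum and 0 with edgeR's exact test, where 3 had an unadjusted p under 0.05. The number of pairs that differed, 23, was 24 to 25 with either library left out.

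Some orders of genes turned with the length scale. With reads not scaled by length, the log2 ratio of Pfkl over Pfkm was 0.48 (main value -0.52), of Eno2 over Eno3 1.11 (-0.33), of Pfkm over Fbp1 0.11 (-0.86), of G6pdx over Pgd -0.97 (0.10), of Tkt over Taldo1 0.17 (-1.59) and of Akr1b3 over Sord 1.08 (-0.75). With the longest transcript as length, Pfkl over Pfkm was 0.11, Eno2 over Eno3 0.27 and G6pdx over Pgd -0.51. Pgk1 over Pgam1 was 0.40 with unshared lengths (-0.07), and Pfkfb3 over Pfkfb4 was -0.49 without library 1 and 0.66 without library 2 (0.09). The reads are the same on every length scale, so those shifts come from the lengths. The 1 CPM filter tests fewer genes, the fold settings move the threshold, edgeR's exact test adds a common dispersion to the counting error, and TMM factors shift all log2 ratios by 0.04. Other causes of these changes were not tested. Depth limits Gys2 and Pygm, which had under 50 reads in each library.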
